A study of Mus musculus with 20 samples.

Results

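Ear pinnae of mice injected intradermally with IL-4 were compared directly with pinnae injected with IL-31, without use of the PBS or IL-13 samples. The 2 groups are the 5 libraries labelled IL-4 and the 5 labelled IL-31, 10 of the 20 libraries of a bulk RNA-seq series in which the other groups received IL-13 or PBS alone. Each animal of these groups received 10 µl of cytokine at 0.1 µg/µl, made up in PBS, in the right ear. The sources used here do not state strain, age, sex, genotype, time to harvest or which libraries share an animal, so a p-value measures the spread between these libraries, which may be technical. Levels are log2 CPM (counts scaled for each library by the authors, on a log2 scale, whose linear values sum to between 957344 and 1049827 in these libraries), differences are IL-4 minus IL-31 on the log2 scale with the standard error (SE) of limma's fit, and a gene passed when its adjusted p (Benjamini-Hochberg over all genes tested, two-sided) was under 0.05.

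IL-4 binds Il4ra paired with Il2rg on blood cells or with Il13ra1 on keratinocytes, fibroblasts and macrophages, and signals mainly through STAT6. IL-31 binds Il31ra paired with Osmr, a receptor of the gp130 family, on sensory neurons, keratinocytes and some myeloid cells, and signals through STAT3 and STAT5. Both are linked to itch in atopic skin. The ear pinna is a sheet of skin on each side of a cartilage plate, with hair follicles, sebaceous glands, fat, vessels, nerves and bundles of striated muscle, so a level is a mean over all of these, and fewer cells of a type cannot be told apart from less RNA per cell.

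The libraries carried the markers of skin in both groups. Krt14, the keratin of basal keratinocytes, stood at 13.18 ± 0.17 in IL-4 and 13.18 ± 0.25 in IL-31 (SD, n = 5 each). Acan, the cartilage proteoglycan aggrecan, stood at 6.85 ± 0.33 and 6.63 ± 0.23. Depth estimated from the step between low values was 6.11 to 23.73 M reads (M, mega), with a median of 13.6 M, and 3 reads corresponded to 0.126 to 0.491 CPM. By library it was 10.32, 10.34, 12.48, 13.96 and 6.11 M in IL-4 libraries 1 to 5. In IL-31 libraries 1 to 5 it was 14.12, 15.48, 13.23, 23.73 and 14.33 M. The libraries differed most in transcripts of muscle, of neutrophils and of red blood cells. A list of 94 skeletal muscle genes took 0.15, 0.644, 0.802, 0.378 and 0.516% of all CPM in IL-4 libraries 1 to 5 and 1.82, 2.01, 0.462, 1.44 and 1.6% in IL-31 libraries 1 to 5. Neutrophil genes were high in IL-4 library 4 and in IL-31 libraries 1, 3 and 4. IL-31 library 3 thus stood apart from its group: its muscle share lay within the IL-4 range, and it had the highest share of neutrophil genes (0.109%, against 0.0104 to 0.0811% in the other libraries) and of red cell genes (0.178%, against 0.00883 to 0.0453%). The main results are therefore given with and without IL-31 library 3, and several single genes and smaller lists with 10 libraries only. Because that library differs in the muscle transcripts themselves, a muscle difference in the other 9 libraries rests on that choice.

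With all 10 libraries, 3 genes of 15640 tested passed (0.0192%), 1 higher (0.00639%) and 2 lower (0.0128%) in IL-4, and all 3 lie outside the muscle list. At an unadjusted p under 0.05 stood 2860 genes (18.3%), 1295 higher (8.28%) and 1565 lower (10.0%), and 611 genes had an adjusted p between 0.05 and 0.1. Without IL-31 library 3, 654 genes passed (4.18%), of which 140 were higher (0.895%) and 514 lower (3.29%) in IL-4. They included the 3 genes that passed with 10 libraries. In these 9 libraries 2829 genes (18.1%) stood at an unadjusted p under 0.05, 1198 higher (7.66%) and 1631 lower (10.4%). Of the 654, 77 belong to the muscle list, and outside it 140 genes were higher and 437 lower. The list does not hold every gene that muscle makes. By at least 2-fold, 7 of the 140 rose and 271 of the 514 fell. Leaving out any other single library gave between 0 and 14 genes. With each library centred on its median, 60 genes passed with 10 libraries, 42 higher and 18 lower. The median difference over all genes tested was -0.01 with 10 libraries and -0.00 with 9.

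**Figure D1:**
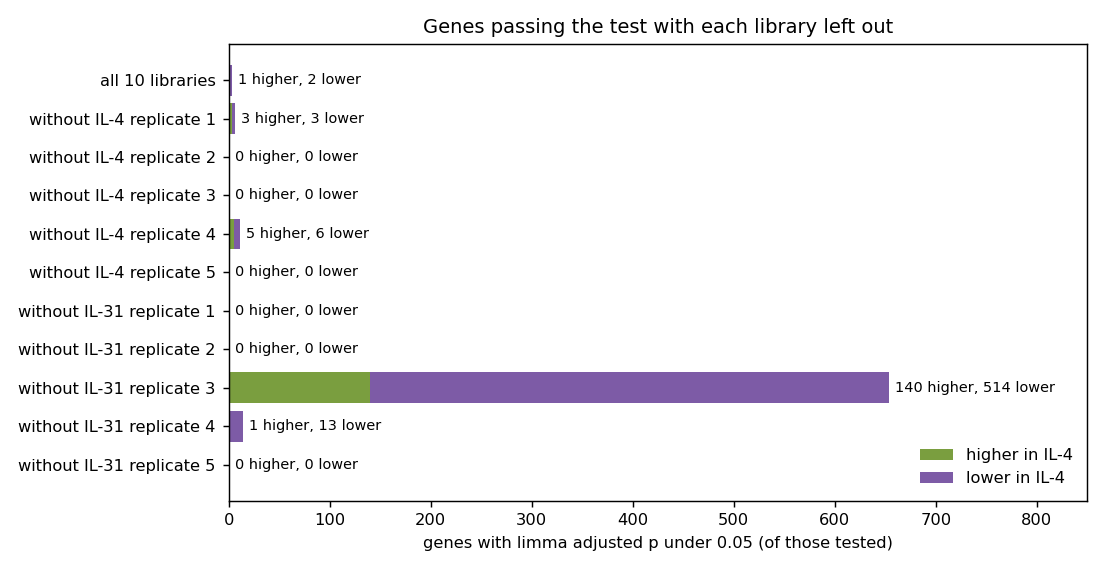
Number of genes with a limma adjusted p under 0.05 (horizontal axis) for all 10 libraries and with each library left out (rows), split into genes higher in IL-4 (green) and lower in IL-4 (purple). The bar without IL-31 replicate 3 stands at 140 higher and 514 lower, while every other bar holds at most 14 genes.

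In the 9 libraries the muscle score (the mean of the members' log2 CPM, centred per gene) did not overlap between the groups, so muscle content and cytokine cannot be told apart there. Estimated depth did not overlap there either: each IL-31 library of the 9 was deeper than each IL-4 library. Depth and cytokine thus cannot be told apart there, and the part of depth was not tested. With the muscle score as a covariate, limma passed 0 genes in the 9 libraries. With 10 libraries and this covariate 1 gene passed, which was higher in IL-4. The neutrophil score overlapped between the groups, and with it as a covariate 678 genes passed in the 9 libraries and 216 in the 10.

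The 3 genes that passed in all 10 libraries differed modestly, with little spread. Zcchc7 encodes a zinc-knuckle protein of the nuclear RNA surveillance machinery. It stood at 7.01, 6.87, 6.87, 6.85 and 6.87 in IL-4 libraries 1 to 5 and at 6.43, 6.47, 6.50, 6.48 and 6.40 in IL-31 libraries 1 to 5. All IL-4 values lay above all IL-31 values, a rise of 0.44 ± 0.05 (SE, limma adjusted p = 0.0199). Gapdh, a glycolytic enzyme often used as a reference gene, stood at 8.30, 8.35, 8.36, 8.40 and 8.41 in IL-4 and at 8.90, 9.02, 8.72, 9.05 and 8.86 in IL-31. The groups did not overlap, and Gapdh was lower in IL-4 by a difference of -0.54 ± 0.07 (adjusted p = 0.0199). Gapdh has many processed pseudogene copies, so its count is uncertain. Ehd4, an ATPase of endocytic recycling, stood at 5.80, 6.0, 6.05, 5.94 and 5.86 in IL-4 and at 6.67, 6.36, 6.47, 6.59 and 6.35 in IL-31. Here too the groups did not overlap (-0.56 ± 0.08, adjusted p = 0.0467). Leaving out IL-31 library 3 gave an adjusted p of 0.0046 for Zcchc7, 0.00352 for Gapdh and 0.00668 for Ehd4. None of the 3 passed without IL-4 library 2, 3 or 5, or without IL-31 library 1, 2 or 5. They also missed in 1 model of all 20 libraries, in 1 of 19 without IL-31 library 3, without a variance trend and with a replicate block. With the muscle score as a covariate all 3 missed too (limma adjusted p = 0.683 each in 10 libraries, and 0.565 to 0.664 in 9). Ehd4 also missed without IL-4 library 1 (adjusted p = 0.051). In GRCm38 Zcchc7 lies on chromosome 4 from 44755877 to 44932215 (plus strand), Gapdh on chromosome 6 from 125161715 to 125166467 (minus) and Ehd4 on chromosome 2 from 120089175 to 120154606 (minus), all annotated as protein-coding.

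**Figure D2:**
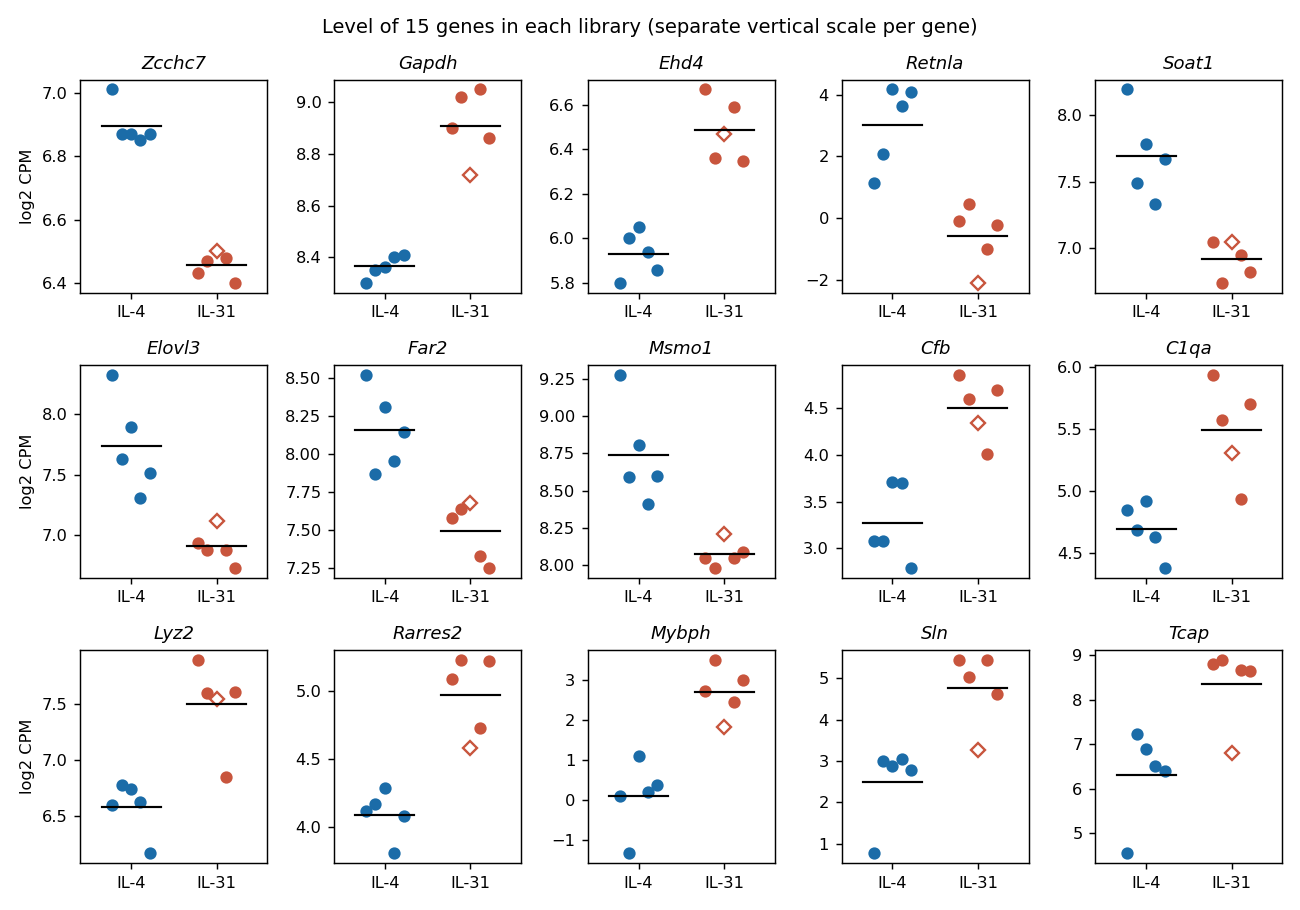
Level (vertical axis, log2 CPM, a separate scale for each gene) of 15 genes in each IL-4 library (blue) and IL-31 library (red), with IL-31 library 3 as an open diamond and the group mean as a bar. For Zcchc7 and Retnla all IL-4 points lie above all IL-31 points, while for Tcap the IL-31 library 3 point (6.80) lies among the IL-4 points.

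The largest difference among the genes named by their small p outside the muscle list was that of Retnla, which encodes the secreted protein RELM alpha, is made by alternatively activated macrophages and is a STAT6 target. Retnla stood at 1.13, 2.08, 4.18, 3.63 and 4.09 in IL-4 libraries 1 to 5 and at -0.10, 0.47, -2.11, -1.02 and -0.23 in IL-31 libraries 1 to 5. Every IL-4 library lay above every IL-31 library, and the 2 lowest IL-4 libraries were 1 and 2. The difference was 3.62 ± 0.62 and missed the threshold with 10 libraries (limma adjusted p = 0.0671). Retnla rose by 3.24 ± 0.59 when IL-31 library 3 was left out (adjusted p = 0.0115). With the muscle score as a covariate in all 10 libraries, Retnla was the 1 gene that passed, with a difference of 5.45 (adjusted p = 0.0101). Over all alternatives tried its adjusted p ran from 0.000737 to 0.193. On the scale of log2(CPM + 1) the difference was 2.56. The IL-31 values lie near the lower limit of the table, so the size of the difference depends on the offset. Retnla is annotated on chromosome 16 from 48842551 to 48844461 (GRCm38, plus strand). The stretch before its annotated exon, chr16:48842359-48842550, is shown because STAT6 is the factor downstream of IL-4. It is printed from RefSeq (GRCm38.p6, plus strand, 5′ to 3′), with capitals at the match to the STAT6-type motif (TTC, any 4 bases, then GAA, on either strand) at position -145 from the RefSeq start.
Retnla: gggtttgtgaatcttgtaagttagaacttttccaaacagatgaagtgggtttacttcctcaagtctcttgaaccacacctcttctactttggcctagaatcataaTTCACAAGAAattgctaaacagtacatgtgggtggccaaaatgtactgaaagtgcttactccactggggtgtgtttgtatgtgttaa
This motif occurs on either strand in 4.7% of the 14558 promoter windows (250 bases before the start) of genes tested. The shorter STAT-type motif with 3 bases in the middle, which has no match in the printed stretch, occurs in 5.9%. A match describes letters only.

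The other genes of the STAT6 and alternative activation list did not pass the test. Of 25 tested, 0 passed by limma with 10 libraries. At an unadjusted p under 0.05, 1 was higher and 5 were lower (8.28% and 10.0% of all genes). The median difference was -0.09, and Retnla was the only member that passed without IL-31 library 3. Arg1, arginase of alternatively activated macrophages, stood at 3.71 ± 0.33 in IL-4 and 3.34 ± 0.30 in IL-31 (SD, n = 5 each, limma adjusted p = 0.307). Mrc1, the macrophage mannose receptor, stood at 4.96 ± 0.47 and 5.52 ± 0.43 (adjusted p = 0.226). Both are named after their values were seen. Ccl24, a chemokine for eosinophils, was at 0.50, 0.85, 0.81, -0.77 and 0.84 in IL-4 and at 2.07, 1.45, 1.14, 1.07 and 1.62 in IL-31. Its groups did not overlap, with IL-4 below IL-31 by a difference of -1.02 ± 0.34 (adjusted p = 0.138). Of 11 eosinophil genes only Ear2 was tested, and it did not pass (-0.06 ± 0.32, adjusted p = 0.942).

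The receptor chains of both cytokines were detected in all libraries, and none passed with all 10. Il6st (gp130), which is not in the receptor pairs named above, is given beside them. Il4ra stood at 4.59, 4.34, 4.75, 4.76 and 4.33 in IL-4 and at 5.07, 4.65, 5.07, 5.58 and 4.44 in IL-31, a difference of -0.41 ± 0.18 (limma adjusted p = 0.265). Its partners Il13ra1 (-0.13 ± 0.10, adjusted p = 0.544) and Il2rg (-0.18 ± 0.21, 0.687) did not pass. Il31ra was low in all libraries, at 0.04, 0.29, 0.44, 0.02 and 1.08 in IL-4 and at 0.52, -0.10, 0.19, -0.51 and -0.23 in IL-31. The groups overlapped (0.40 ± 0.30, adjusted p = 0.511). Its partner Osmr did not pass either (-0.05 ± 0.14, adjusted p = 0.879). Il6st, which encodes gp130, stood at 7.51, 7.43, 7.73, 7.50 and 7.43 in IL-4 and at 7.86, 7.82, 7.50, 7.70 and 7.89 in IL-31. Its difference of -0.23 ± 0.08 did not pass with 10 libraries (adjusted p = 0.166), and without IL-31 library 3 Il6st fell (-0.30, adjusted p = 0.0442). Il6st was the only 1 of 16 receptor and signalling genes to pass there, where 3.29% of all genes fell. Its groups overlapped with 10 and with 9 libraries. Of 22 genes of the gp130 family and STAT3 targets, 0 passed by limma with 10 libraries, with a median of -0.24. At an unadjusted p under 0.05, 1 was higher and 7 were lower (8.28% and 10.0% of all genes). Cebpd, a transcription factor induced by STAT3, was lower in IL-4 by a difference of -0.56 ± 0.14 (adjusted p = 0.0862), with 1 IL-4 library inside the IL-31 range. Fos, an immediate early factor, was at 3.53, 2.50, 3.00, 5.04 and 2.81 in IL-4 and at 4.61, 6.28, 5.41, 4.70 and 3.89 in IL-31. The groups overlapped through IL-4 library 4 (-1.60 ± 0.49, adjusted p = 0.118).

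Genes of sebaceous lipid synthesis stood higher in IL-4 than in IL-31. Sebaceous glands fill their cells with wax esters, cholesterol esters and triglycerides, and the list of 30 genes covers cholesterol synthesis, fatty acid synthesis and elongation, and ester formation with its regulators. With 10 libraries 0 of the 30 passed by limma. At an unadjusted p under 0.05, 17 were higher and 1 lower (8.28% and 10.0% of all genes), and the median difference was 0.38. In 11 of the 30 all IL-4 values lay above all IL-31 values, against 2.22% of all genes tested (4.00% in either direction). Without IL-31 library 3, 10 of the 30 rose and 0 fell, against 0.895% and 3.29% of all genes, with a median of 0.41. By role, 5 of 9 genes of ester formation and regulation rose, 2 of 9 of fatty acid synthesis and 3 of 12 of cholesterol synthesis. IL-31 library 3, with muscle transcripts at the IL-4 level, had a sebaceous list score of -0.03, above the other IL-31 libraries (-0.22 to -0.16) and below all IL-4 libraries (0.01 to 0.45).

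Soat1, which esterifies cholesterol, stood at 8.19, 7.49, 7.78, 7.33 and 7.67 in IL-4 libraries 1 to 5 and at 7.05, 6.74, 7.05, 6.95 and 6.82 in IL-31. The groups did not overlap, with a difference of 0.77 ± 0.14 (limma adjusted p = 0.0671, and 0.0114 without IL-31 library 3). Elovl3, a fatty acid elongase of sebaceous glands, stood at 8.33, 7.63, 7.90, 7.31 and 7.52 in IL-4 and at 6.94, 6.88, 7.12, 6.88 and 6.73 in IL-31. These groups were also separate (0.83 ± 0.16, adjusted p = 0.0701, and 0.0125 without IL-31 library 3). Far2, which makes the fatty alcohols of wax esters, stood at 8.52, 7.87, 8.31, 7.95 and 8.14 and at 7.58, 7.64, 7.68, 7.33 and 7.25 (0.66 ± 0.12, adjusted p = 0.0701 and 0.0127). Awat1, the wax synthase that uses those alcohols, stood at 6.31, 5.48, 5.70, 5.31 and 5.45 and at 4.84, 5.09, 5.16, 4.60 and 4.68. IL-4 library 1 was the highest for all 4 genes. Awat1 differed by 0.78 ± 0.18 (adjusted p = 0.0776 and 0.022).

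Mc5r, the melanocortin receptor of sebocytes, differed by 0.83 ± 0.19, with IL-4 library 5 (3.49) below IL-31 library 3 (3.56). Its adjusted p was 0.0785 with 10 libraries and 0.0287 with 9 (limma). Among genes of cholesterol synthesis, Msmo1, a sterol oxidase, stood at 9.28, 8.59, 8.81, 8.41 and 8.60 in IL-4 and at 8.05, 7.98, 8.21, 8.05 and 8.09 in IL-31. The groups did not overlap (0.66 ± 0.13, adjusted p = 0.0701 and 0.018). Elovl6, which elongates palmitate, differed by 0.48 ± 0.09 (adjusted p = 0.0691 and 0.0112), also without overlap. Outside the muscle list, rises without IL-31 library 3 were ranked among passing genes with separate groups in the 9 libraries, predicted genes left out. Next after Retnla came Cyp2j12, a cytochrome P450 (1.04), Sgpp2, a sphingosine phosphate phosphatase (1.00), and Hacl1, a peroxisomal lyase of fatty acid oxidation (0.99). Panx3, a channel protein (0.97), and Aadacl3 (0.91) followed. Genes that rose more but overlapped or had a predicted name are not listed. Leaving out IL-4 library 1 as well, an alternative chosen after seeing the data, left 132 genes higher and 519 lower. With the muscle score as a covariate the median of the sebaceous list was 0.118 in 10 libraries and 0.07 in 9, with 0 of its genes passing in the 9.

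Skeletal muscle genes stood far lower in IL-4 than in 4 of the 5 IL-31 libraries. The 94 genes of the list cover the contractile filaments, calcium handling and excitation, energy supply, and regulators of muscle. With 10 libraries 0 of 91 tested passed by limma. At an unadjusted p under 0.05, 87 were lower in IL-4 (10.0% of all genes), and the median difference was -1.62. Without IL-31 library 3, 77 of the 91 fell and 0 rose, against 3.29% of all genes that fell, with a median of -2.0. These were 31 of 36 genes of the thick and thin filaments, 17 of 19 of calcium handling and excitation, 14 of 17 of energy supply and 15 of 19 regulators. In 3 of the 91 the 5 IL-4 and 5 IL-31 values did not overlap (1.78% of all genes tested were lower in IL-4 in this way). IL-4 library 1 had the lowest muscle score (-2.30), and without it and IL-31 library 3, 651 genes passed.

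Sln, which encodes sarcolipin, an inhibitor of the muscle calcium pump, stood at 0.77, 3.00, 2.88, 3.04 and 2.78 in IL-4 and at 5.45, 5.03, 3.27, 5.44 and 4.62 in IL-31. The groups did not overlap, although IL-31 library 3 lay closest to IL-4 (-2.27 ± 0.48, limma adjusted p = 0.0701, and 0.0069 without that library). Tcap, the titin cap of the Z-disc, stood at 4.55, 7.24, 6.90, 6.51 and 6.39 in IL-4 and at 8.80, 8.90, 6.80, 8.67 and 8.65 in IL-31. The groups overlapped through IL-31 library 3 (-2.04 ± 0.49, adjusted p = 0.0807 and 0.00868). Jsrp1 (-1.63), Casq2 (-1.56), Cacng1 (-1.60), Jph2 (-1.62) and Cav3 (-1.69), which serve the coupling of membrane and calcium store, and the myogenic factor Myf6 (-1.35), the muscle enolase Eno3 (-1.41) and the tropomyosin Tpm2 (-1.34) had adjusted p-values from 0.0701 to 0.0814 with 10 libraries, and all 8 fell without IL-31 library 3. Mybph, a myosin-binding protein outside the list, stood at 0.09, -1.34, 1.10, 0.21 and 0.38 in IL-4 and at 2.73, 3.52, 1.82, 2.46 and 3.02 in IL-31. All IL-4 values lay below all IL-31 values (-2.62 ± 0.42, adjusted p = 0.06 and 0.00613). Falls outside the list were ranked among passing genes with separate groups in the 9 libraries, predicted genes left out. Next after Mybph came Ankrd2 (-2.58), Eef1a2 (-2.47), Dusp27 (-2.36), Hspb7 (-2.34) and Ank1 (-2.33). All 5 are known from striated muscle. Their groups overlapped in the 10 libraries.

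The postsynaptic side of the nerve-muscle contact differed in the same direction. Of 10 neuromuscular junction genes 0 passed by limma with 10 libraries, with 1 higher and 8 lower at an unadjusted p under 0.05 (8.28% and 10.0% of all genes), and 7 fell without IL-31 library 3 (3.29% of all genes). Musk, the receptor kinase that clusters acetylcholine receptors, stood at -0.44, -0.26, 0.67, 0.02 and 0.18 in IL-4 and at 1.88, 1.73, 0.67, 1.63 and 1.52 in IL-31. IL-31 library 3 met the highest IL-4 library, and the others lay above (-1.45 ± 0.29, adjusted p = 0.0701 and 0.00819). Rapsn, the scaffold of those receptors, was separate between the groups (-1.47 ± 0.30, adjusted p = 0.0701 and 0.0074). The receptor subunits Chrna1 (-1.10 ± 0.30) and Chrnb1 (-0.99 ± 0.27) had an adjusted p of 0.0932 each with 10 libraries, and 0.0319 and 0.0204 without IL-31 library 3. The promoters of Mybph (chr1:134193198-134193447, plus strand) and Chrna1 (chr2:73580339-73580588, minus strand) are shown because muscle genes moved together. Both are from RefSeq, GRCm38.p6, 5′ to 3′, ending at the base before the start, with capitals at matches to the E-box CAGCTG, a motif bound by myogenic factors.
Mybph: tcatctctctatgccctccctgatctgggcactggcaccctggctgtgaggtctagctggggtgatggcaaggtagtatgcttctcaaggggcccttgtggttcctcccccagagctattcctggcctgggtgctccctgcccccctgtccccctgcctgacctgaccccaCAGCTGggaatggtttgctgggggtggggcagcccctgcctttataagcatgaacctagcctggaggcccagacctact
Chrna1: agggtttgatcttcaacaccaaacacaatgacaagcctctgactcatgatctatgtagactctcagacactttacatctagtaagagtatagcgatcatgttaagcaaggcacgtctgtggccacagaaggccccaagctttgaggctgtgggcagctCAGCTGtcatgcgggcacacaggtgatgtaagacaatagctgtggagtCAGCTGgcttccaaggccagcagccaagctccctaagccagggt
The matches lie at position -79 in Mybph and at -92 and -44 in Chrna1. CAGCTG occurs in 38.1% of 84 promoter windows of the muscle list and in 12.7% of windows of all genes tested, and the MEF2-type core (CTA, any 4 bases, then TAG) in 10.7% and 2.8%. The E-box is its own reverse complement, so each match counts once. In the 22 windows of the sebaceous list CAGCTG occurred in 18.2% and the STAT6-type motif in 0.

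**Figure D3:**
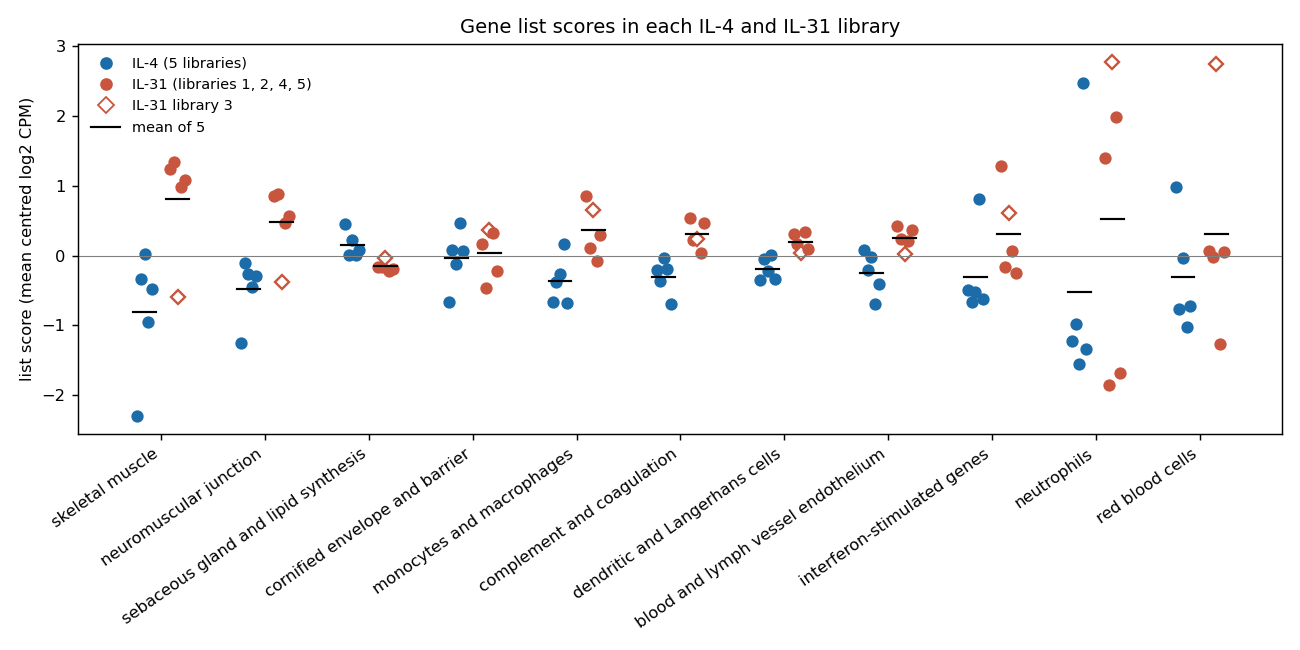
Score of 11 gene lists (vertical axis, mean centred log2 CPM of the members) in each IL-4 library (blue) and IL-31 library (red), with IL-31 library 3 as an open diamond and the mean of 5 as a bar. For skeletal muscle IL-31 library 3 (-0.60) lies among the IL-4 libraries. For the sebaceous list it (-0.03) lies between the other IL-31 libraries (up to -0.16) and the IL-4 libraries (from 0.01), closer to the latter.

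In glycolysis and respiration 1 gene passed with 10 libraries, and a minority of the lists fell in the 9. A glycolysis list of 19 genes, added after the data were seen because Gapdh passed, had Gapdh alone passing with 10 libraries and 10 lower at an unadjusted p under 0.05 (10.0% of all genes). In the 9 libraries 7 of the 19 fell (3.29% of all genes), 3 of which (Eno3, Pgam2 and Pfkm) are also on the muscle list. Tpi1, triose phosphate isomerase, stood at 7.58, 7.75, 7.87, 7.63 and 7.60 in IL-4 and at 8.08, 8.13, 7.92, 8.13 and 8.09 in IL-31. The groups did not overlap (-0.39 ± 0.07, limma adjusted p = 0.0695 and 0.00762). Pkm, pyruvate kinase, was also separate (-0.42 ± 0.09, adjusted p = 0.0701 and 0.0235), and Aldoa, an aldolase abundant in muscle, overlapped through IL-31 library 3 at 9.11 (-0.56 ± 0.11, 0.0701 and 0.00451). Of 30 nuclear genes of oxidative phosphorylation 0 passed by limma with 10 libraries, and 21 were lower at an unadjusted p under 0.05 (10.0% of all genes). Without IL-31 library 3, 10 of the 30 fell (3.29% of all genes). Atp5o, an ATP synthase subunit, was the named member with separate groups (-0.36 ± 0.07, adjusted p = 0.0701 and 0.00904). Of 13 genes of the mitochondrial genome 0 passed with 10 libraries, and 6 were lower at an unadjusted p under 0.05 (10.0% of all genes). Without IL-31 library 3, 5 of the 13 fell (3.29% of all genes). The largest member differences were -0.38 in the nuclear list and -0.46 in the mitochondrial one. Muscle scores moved with these lists, and their part in the result was not tested apart from the covariate fits.

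Monocyte and macrophage genes stood lower in IL-4. Of 28 tested 0 passed by limma with 10 libraries. At an unadjusted p under 0.05, 16 were lower and 0 higher (10.0% and 8.28% of all genes), and the median difference was -0.68. In the 10 libraries all 28 were lower in IL-4 by the mean. In the 9 libraries 3 of the 28 fell (3.29% of all genes fell) and the median was -0.62. With the muscle score as a covariate the median was -0.69 in 10 libraries and -0.24 in the 9, where that score does not overlap between the groups. Lyz2, lysozyme of phagocytes, stood at 6.60, 6.78, 6.74, 6.63 and 6.17 in IL-4 and at 7.90, 7.60, 7.55, 6.85 and 7.61 in IL-31. IL-31 library 3 lay with its own group, and the groups did not overlap (-0.92 ± 0.17, adjusted p = 0.0701 and 0.0188). C1qa, a chain of complement C1q made by macrophages, stood at 4.85, 4.69, 4.92, 4.63 and 4.38 and at 5.94, 5.57, 5.31, 4.94 and 5.70. Its lowest IL-31 library, 4, was just above the highest IL-4 library, 3 (-0.80 ± 0.17, adjusted p = 0.0701 and 0.0213). Lyz1 (-1.04 ± 0.24) was separate too (0.0792 and 0.0249). Lyz1 and Lyz2 are near-identical copies, so their split is uncertain. The macrophage list took 0.0426 to 0.0679% of CPM in IL-4 and 0.0586 to 0.104% in IL-31, ranges that overlapped.

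Of complement and coagulation genes, 22 stood lower and 3 higher in IL-4 by the mean. Of 25 tested, of which C1qa, C1qb and C1qc are also on the macrophage list, 0 passed by limma with 10 libraries, 15 were lower at an unadjusted p under 0.05 (10.0% of all genes), the median was -0.55, and 5 fell without IL-31 library 3 (3.29% of all genes). Cfb, factor B of the alternative pathway, stood at 3.08, 3.08, 3.71, 3.70 and 2.79 in IL-4 and at 4.86, 4.60, 4.34, 4.01 and 4.70 in IL-31. The groups did not overlap (-1.23 ± 0.20, adjusted p = 0.06 and 0.00996). C3, the central component, fell without IL-31 library 3 (-1.25, adjusted p = 0.00352) and stood at 5.42 ± 0.27 and 6.37 ± 0.68 with all libraries (SD, n = 5 each, limma adjusted p = 0.0979). C3 is named after its values were seen. Serping1, the C1 inhibitor, overlapped with 10 libraries (-0.74 ± 0.17, adjusted p = 0.0785 and 0.0127). Rarres2, the chemoattractant chemerin, stood at 4.12, 4.17, 4.29, 3.81 and 4.08 in IL-4 and at 5.09, 5.23, 4.58, 4.73 and 5.22 in IL-31. All IL-4 values lay below all IL-31 values (-0.88 ± 0.14, adjusted p = 0.06 and 0.00467). Wfdc17, a secreted protein of myeloid cells, was also separate (-0.76 ± 0.12, adjusted p = 0.06 and 0.0103).

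Antigen presentation genes of MHC class II followed the same direction with smaller differences. Of 23 dendritic and Langerhans cell genes 0 passed by limma with 10 libraries, 10 were lower at an unadjusted p under 0.05, and 6 fell without IL-31 library 3. Over all genes tested these shares were 10.0% and 3.29%. The median was -0.37 with 10 libraries and -0.41 with 9, and with the muscle score as a covariate it was -0.161 and -0.36. H2-Aa, an MHC class II chain, stood at 6.98, 7.16, 7.10, 7.18 and 7.26 in IL-4 and at 7.79, 7.59, 7.31, 7.56 and 7.56 in IL-31. The groups were separate by a small gap (-0.42 ± 0.08, adjusted p = 0.0701 and 0.00647). H2-Ab1 (-0.37 ± 0.09), the invariant chain Cd74 (-0.32 ± 0.08) and H2-DMb1 (-0.43 ± 0.11), which loads peptide, overlapped through IL-31 library 3 and fell without it (adjusted p 0.00762, 0.0074 and 0.0124).

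**Figure D4:**
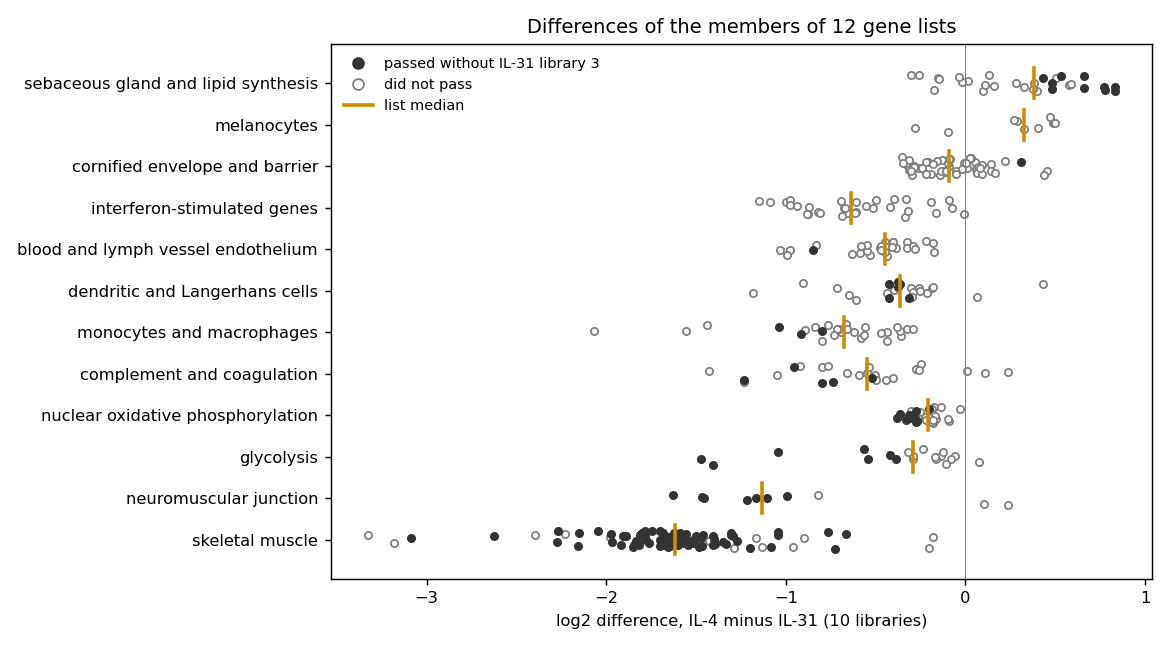
Difference IL-4 minus IL-31 with 10 libraries (horizontal axis, log2) of each tested member of 12 gene lists (rows), with the list median as an orange bar and filled points for members that passed without IL-31 library 3. Skeletal muscle has its median at -1.62, the sebaceous list at 0.38 and the cornified envelope list at -0.09.

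The remaining genes of smallest p outside the muscle list differed by less than 2-fold. They were chosen among genes whose groups were separate in the 10 libraries, so the place of IL-31 library 3 on the IL-31 side is fixed by the choice. Higher in IL-4 were Nrbp2, a pseudokinase (0.40 ± 0.06), Ogt, which adds O-linked N-acetylglucosamine to proteins (0.36 ± 0.06), Mdm4, an inhibitor of p53 (0.35 ± 0.06), and Afdn, the junction protein afadin (0.32 ± 0.06). Lower in IL-4 were Rhoc, a small GTPase (-0.61 ± 0.10), Samd4, an RNA-binding repressor (-0.62 ± 0.10), Gpc1, a cell surface proteoglycan (-0.55 ± 0.09), and Aes, a corepressor (-0.36 ± 0.06). Their adjusted p-values ran from 0.06 to 0.0701 with 10 libraries. All 8 passed without IL-31 library 3 in the same direction.

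No keratinocyte gene of the lists passed with 10 libraries. Of 51 genes of the cornified envelope and barrier 0 passed by limma with 10 libraries, with a median of -0.09. At an unadjusted p under 0.05, 2 were higher and 1 lower (8.28% and 10.0% of all genes). In the 9 libraries 1 rose and 0 fell (0.895% and 3.29% of all genes). Of 31 basal and suprabasal keratinocyte genes 0 passed with either set of libraries. With 10 libraries 2 of the 31 were higher and 0 lower at an unadjusted p under 0.05 (8.28% and 10.0% of all genes). Lor, the envelope protein loricrin, stood at 12.74 ± 0.24 in IL-4 and 13.10 ± 0.23 in IL-31 (SD, n = 5 each, limma adjusted p = 0.24), a gene named after its values were seen. Tgm5, a transglutaminase, was separate between the groups (0.45 ± 0.11, adjusted p = 0.0843) but missed the threshold without IL-31 library 3 too (0.0735). Of 18 stressed keratinocyte genes 0 passed with 10 libraries (2 lower at an unadjusted p under 0.05, against 10.0% of all genes).

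Neutrophil genes varied widely within both groups. Of 15 tested 0 passed by limma, with 0 higher and 1 lower at an unadjusted p under 0.05 (8.28% and 10.0% of all genes). The median was -1.07 with 10 libraries and -0.47 without IL-31 library 3. Their scores ran from -1.56 to 2.48 in IL-4 and from -1.85 to 2.78 in IL-31. Interferon-stimulated genes had 0 of 32 passing, with 8 lower at an unadjusted p under 0.05 (10.0% of all genes). Their median of -0.64 was -0.51 without IL-31 library 3. Psmb8, an immunoproteasome subunit, was separate between the groups (-0.66 ± 0.18, limma adjusted p = 0.098 and 0.0663). IL-4 library 4 and IL-31 libraries 1 and 3 were highest in interferon-stimulated genes and also high in neutrophil genes. The 2 scores did not move together in every library. IL-31 library 4 had a neutrophil score of 1.98 and an interferon score of 0.06, against 1.40 and 1.28 in IL-31 library 1. The part of neutrophil content in the interferon result was not tested beyond the covariate fit, in which the median of the interferon list was -0.343.

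Vessel, matrix and chemokine genes mostly stood lower in IL-4, and few passed. Of 30 endothelial genes 15 were lower at an unadjusted p under 0.05 (10.0% of all genes) with a median of -0.45. Pdpn, a lymphatic marker also made by other stromal cells, was the 1 of 30 that fell without IL-31 library 3 (-0.84, limma adjusted p = 0.0261), a share near the 3.29% of all genes. Of 32 matrix and fibroblast genes 11 were lower at an unadjusted p under 0.05 (10.0% of all genes). Without that library 2 of the 32 fell (3.29% of all genes), among them Dcn, the collagen-binding proteoglycan decorin (-0.50, limma adjusted p = 0.0421). Of 19 chemokines 6 were lower at an unadjusted p under 0.05 (10.0% of all genes) and 1 fell without IL-31 library 3 (3.29% of all genes). This was Ccl21a, a lymphatic chemokine with near-identical copies and so uncertain, at 5.20, 5.35, 5.40, 4.48 and 5.07 in IL-4 and at 5.70, 5.92, 5.58, 5.63 and 6.01 in IL-31. The groups were separate (-0.67 ± 0.16, adjusted p = 0.0791 and 0.034). Of the endothelial, matrix and chemokine lists 0 genes passed with 10 libraries.

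Few genes of nerves and itch passed. Of 17 itch mediators and receptors 0 passed by limma with either set of libraries. At an unadjusted p under 0.05, 1 was higher and 0 lower (8.28% and 10.0% of all genes). The 1 was Trpv3, a warm-sensing channel of keratinocytes (0.32 ± 0.12, limma adjusted p = 0.179). Of 49 neurotrophic and axon guidance genes 0 passed with 10 libraries, with 5 higher and 7 lower at an unadjusted p under 0.05, shares near those of all genes (8.28% and 10.0%). Efnb2, the guidance ligand ephrin-B2, stood at 6.96, 6.58, 6.73, 6.50 and 6.53 in IL-4 and at 6.24, 6.31, 6.24, 6.19 and 6.31 in IL-31. The groups were separate (0.40 ± 0.08, adjusted p = 0.0701), and Efnb2 rose without IL-31 library 3 (adjusted p = 0.033). The 1 member that fell there (3.29% of all genes fell) was Ntn4, a netrin, named after its values were seen (-0.61, limma adjusted p = 0.0208). Of 23 Schwann cell genes 0 passed with either set (1 higher at an unadjusted p under 0.05 with 10, against 8.28% of all genes). Of 5 axonal transcripts 0 passed with 10 libraries (2 lower at an unadjusted p under 0.05, against 10.0% of all genes). Gap43, a growth cone protein, was at 1.79, 1.56, 2.08, 1.72 and 0.70 in IL-4 and at 2.94, 2.38, 2.47, 2.31 and 2.52 in IL-31, without overlap. Its difference of -0.95 ± 0.24 missed the threshold (adjusted p = 0.088 and 0.0708). Uchl1, a ubiquitin hydrolase of neurons, overlapped between the groups with 10 and with 9 libraries. It fell without IL-31 library 3 (-1.29, limma adjusted p = 0.0334).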

How the data were processed

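Total RNA of mouse ear pinnae was sequenced after NEBNext Ultra II library preparation, per the labels' protocols. The authors deposited log2 CPM values of 16669 genes, and the submitters' processing notes name edgeR and GRCm38. For aligner, counter and versions, nothing was found (not given in the sources used here). All libraries share a lowest value of -2.684, which equals an offset of 0.1556 CPM on the linear scale and understates differences of low genes. In the 10 libraries 79.5 to 85.9% of low values were whole reads within 0.02 reads, so reads were not recovered and no count model was run.

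Genes reaching a log2 CPM of 0 in 5 or more of the 10 libraries (15640, with 1029 removed) were fitted in limma 3.58.1 (R 4.3.3, trend), a pipeline tested on simulated data. Symbols and coordinates came from GENCODE M21, which named 16652 genes, and promoters from RefSeq GRCm38.p6, which held 11407 of the tested genes.

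The samples and the 38 gene lists were chosen with earlier results of these data known. Named genes were the 10 of smallest p in each direction with separate groups outside the muscle list (fewer than 20 genes passed), 10 muscle genes, the smallest p of each other list, and 6 receptor chains. Chosen after their values were seen were the 3 passing genes, members of lists with many small p-values, 4 glycolysis genes and those said to be so in the text. So were the 6 largest changes in each direction among the 9-library calls outside the muscle list with separate groups in the 9 libraries. Predicted genes were counted, not named. Alternatives were other filters, scalings, variance models, covariates, a replicate block, a model of all 20 libraries and leaving out each library.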

Additional observations from a re-analysis of the deposited data

Results flagged for a closer look

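Within each group of 5, the highest or lowest library was set against the nearest of the others, and a gap above 0.71 of the group's range was marked. Of 310 groups of 5 examined (named genes and list scores), 35 were marked, and chance marks about 1 in 20 independent groups. Some genes were named because they passed without IL-31 library 3, and muscle genes vary together. The marks are thus not independent, and their number cannot be set against that rate. IL-31 library 3 gave 23 of the 35, all low. Among genes of striated muscle or abundant in it, these were Aldoa (9.11), Ank1 (3.48), Ankrd2 (2.13), Cacng1 (3.58), Cav3 (1.67), Dusp27 (1.98), Eef1a2 (4.14), Eno3 (6.07), Hspb7 (4.60), Jsrp1 (2.90), Tcap (6.80) and Tpm2 (7.33), in log2 CPM. Other genes low in IL-31 library 3 were Cd74 (8.12), Gpc1 (6.62), H2-Ab1 (7.48), Lgr5 (2.40), Nrbp2 (7.45), Samd4 (4.36), Sdhb (6.04) and Tpi1 (7.92). So were the list scores of skeletal muscle genes (-0.60), mitochondrially encoded genes (-0.18) and neurotrophic and axon guidance genes (-0.05).

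IL-4 library 1 gave 4 marks: it was high in Nrbp2 (8.08) and Zcchc7 (7.01) and low in Pkm (9.31) and Sln (0.77). IL-4 library 4 gave 3, being low in Ccl24 (-0.77) and high in the scores of neutrophils (2.48) and interferon-stimulated genes (0.81). Another 5 came from other libraries. Il6st was high in IL-4 library 3 (7.73). Pdpn was low in IL-31 library 2 (3.40). IL-31 library 4 was high in Mcm3 (5.94), Psmb9 (3.56) and the score of T and innate lymphoid cells (0.33).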

How the results depend on the processing

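Counts of passing genes moved with the variance model and with single libraries. Against 3 genes (1 higher, 2 lower, 3 outside the muscle list), leaving out 1 library gave 0 to 654 in all, 0 to 140 higher, 0 to 514 lower and 0 to 577 outside the muscle list. Beyond IL-31 replicate 3 these were 14 without IL-31 replicate 4, 11 without IL-4 replicate 4, 6 without IL-4 replicate 1 and 0 for the others. In the order all, higher, lower and outside the list, log2(CPM + 1) gave 5, 2, 3 and 5, median centring 60, 42, 18 and 60, and a robust fit 18, 6, 12 and 18. Median centring turned the split toward higher genes (42 of 60, against 1 of 3). A muscle covariate gave 1, 1, 0 and 1, a neutrophil covariate 216, 41, 175 and 199, and a barrier covariate 196, 87, 109 and 193. A fit without trend and 1 model of 20 libraries gave 0 throughout, while no filter, a filter at a log2 value of 2 and quantile normalization gave 3.

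Alternatives chosen after seeing the data left out IL-31 replicate 3. With IL-4 replicate 1 also left out they gave 651, 132, 519 and 570 genes, 550 of them shared with the 654. With a neutrophil covariate they gave 678, 124, 554 and 598 (598 shared), with a muscle covariate 0 throughout, and in 1 model of 19 libraries 290, 3, 287 and 220 (277 shared). That model takes the spread from all 4 groups.

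The correlations over genes of same-numbered deviations from the group means were -0.16, 0.03, -0.26, 0.13 and 0.08 for numbers 1 to 5. Those of differently numbered libraries ran from -0.34 to 0.34. Such values cannot show whether same-numbered libraries were handled together. With a replicate block 0 genes passed in each direction and outside the muscle list.

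Of 3028 gene values under 26 alternatives, 2592 kept direction and side of the threshold, 373 passed newly, 37 no longer passed and 26 changed sign. With the muscle covariate in 10 libraries the differences became positive for Dusp27 (0.030), Ear2 (0.642), Eef1a2 (0.093), Hspb7 (0.005) and Osmr (0.028). In 9 libraries with it they became 0.058 for Ank1, 0.164 for Chrna1, 0.158 for Cthrc1, 0.491 for Dusp27, 0.615 for Ear2, 0.007 for Hspb1, 0.134 for Il13ra1, 0.100 for Il2rg, 0.072 for Lum, 0.004 for Serpinb3a and 0.153 for Vcam1, and negative for Dct (-0.253), Lgr5 (-0.254) and Sox9 (-0.094). That covariate did not overlap between the groups. Ear2 changed sign without IL-4 replicate 1 (0.066), 2 (0.020) or 4 (0.025) and without IL-31 replicate 1 (0.034) or 2 (0.038), with a range down to -0.270, and Osmr without IL-4 replicate 5 (0.031) or IL-31 replicate 4 (0.063), with a range down to -0.125. Of 987 list medians 35 moved by more than the spread between libraries. With the muscle covariate 12 of the 38 lists moved in 10 libraries and 21 of the 38 in 9. The filter at a log2 value of 2 and leaving out IL-4 replicate 3 moved 1 list each. The cause of these changes was not tested. Differences in genes under 0.126 to 0.491 CPM (3 reads) were not detectable at this depth.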

Other observations

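Several smaller gene groups were also examined. Of 9 melanocyte genes, 4 were higher in IL-4 at an unadjusted p under 0.05 by limma (8.28% of all genes), 0 passed, and the median difference was 0.32. Pmel, the protein that builds melanosome fibrils, stood at 3.97, 3.84, 3.95, 3.61 and 3.78 in IL-4 and at 3.01, 3.58, 3.29, 3.47 and 3.35 in IL-31. Its groups were separate (0.49 ± 0.13, adjusted p = 0.088, and 0.0816 without IL-31 library 3). Of 17 circadian clock genes 6 were higher at an unadjusted p under 0.05 (8.28% of all genes) and 0 passed. Clock itself was separate between the groups (0.20 ± 0.07, limma adjusted p = 0.142). Of 32 cell cycle genes 5 were lower at an unadjusted p under 0.05 and 2 fell without IL-31 library 3, against 10.0% and 3.29% of all genes. Mcm3, a subunit of the replicative helicase, stood at 5.09, 5.42, 5.13, 5.13 and 5.22 in IL-4 and at 5.56, 5.63, 5.56, 5.94 and 5.52 in IL-31, again separate (-0.44 ± 0.09, adjusted p = 0.0709 and 0.0273).

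Among 19 adipocyte genes 0 passed with 10 libraries. By limma 2 were higher and 3 lower at an unadjusted p under 0.05 (8.28% and 10.0% of all genes). Without IL-31 library 3, 1 rose and 2 fell (0.895% and 3.29% of all genes). The gene that rose was Adrb3, the beta-3 adrenergic receptor (0.93, limma adjusted p = 0.0404). Of 2 that fell, Slc2a4 (-1.30, adjusted p = 0.00576) and Car3 (-1.21, 0.00613), both are also made by skeletal muscle. They are named after their values were seen. Of 14 mast cell and basophil genes and 23 Wnt ligands and modulators 0 passed, and none had an unadjusted p under 0.05 (18.3% of all genes). Of 19 T and innate lymphoid cell genes 0 passed. At an unadjusted p under 0.05, 1 of them was higher and 3 were lower (8.28% and 10.0% of all genes). Cd4 was separate between the groups (-0.84 ± 0.23, limma adjusted p = 0.0936). With 10 libraries 0 genes passed among 10 of the hair follicle, 21 of cartilage, 21 of lipid mediators, 30 of the immediate early and heat shock response, 19 of hypoxia and 6 of red blood cells. At an unadjusted p under 0.05 these lists held 2 higher and 1 lower, 2 and 1, 0 and 3, 0 and 5, 0 and 4, and 0 and 0, in that order. Over all genes tested the shares were 8.28% higher and 10.0% lower. Without IL-31 library 3, 1 lipid mediator gene fell (3.29% of all genes), and 0 genes of the other lists named here passed.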
